A study of Canis lupus familiaris with 8 samples.

Results

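The polo-like kinases are a small family of serine/threonine kinases, and the 4 genes described here, PLK1, PLK2, PLK3 and PLK4, were taken by symbol from a table of 37952 genes. They were split by their known roles into mitotic members (PLK1 and PLK4) and inducible members (PLK2 and PLK3). All 4 passed the filter on low counts that left 14571 genes for testing. The symbols fix which genes are described and use no measured value, but the family was singled out with earlier results of these data known.

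Polo-like kinases carry a kinase domain followed by polo boxes, which dock the enzyme onto partners that have often been phosphorylated beforehand by another kinase. PLK1 drives entry into and passage through mitosis, from centrosome maturation to cytokinesis, and its transcript accumulates in G2 and is low in G1. PLK4 is the kinase that starts centriole duplication, and its amount sets how many new centrioles form. PLK2 and PLK3 were first described as transcripts induced by serum and growth factors, they are also induced by stress, and p53 activates transcription of PLK2.

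The cells were MDCK GII, an established dog kidney epithelial line, grown overnight as monolayers on collagen-coated silicone membranes in 6-well stretch devices. The stretch group (4 wells) was held for 2 hours at 18% strain, applied equally in both in-plane directions, and the control group (4 wells) came from the same kind of device without strain. All wells shared the line, the medium with fetal bovine serum and the polyA-selected stranded library, and no gene was altered in either group. The labels describe the 4 wells of a group as technical replicates spread over devices, so each p-value measures the spread between wells of a single line and not between independent lines or animals.

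Total counts per well ranged from 27047358 to 32478887. All 10 kidney epithelial markers on the list were present (CDH1, EPCAM, KRT8, KRT18, CDH16, PAX8, TJP1, OCLN, CLDN2 and CLDN7), with a summed level between 5398 and 5988 CPM in the control group (CPM are counts scaled to a common library total) and between 5676 and 5817 CPM in the stretch group. Of 7 fibroblast markers COL1A2, COL3A1, DCN and LUM had no counts, of 6 leukocyte markers PTPRC, CD3E and ITGAM had none, and of 5 endothelial markers KDR alone averaged at least 1 CPM. The summed levels of these lists overlapped between groups (1.80 to 4.22 and 2.92 to 3.88 CPM for fibroblast, 10.2 to 12.7 and 10.7 to 11.9 for leukocyte, 1.54 to 2.30 and 1.33 to 2.37 for endothelial markers, control and stretch). The leading principal component held 28.2% of the variance of the 1000 most variable genes and placed replicates 1 and 2 of both groups on one side and replicates 3 and 4 on the other. Values within each of these sets of wells are therefore given beside the pooled ones.

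PLK1 lies on chromosome 6 (22410301 to 22422125, minus strand, 11 exons after merging), PLK4 on chromosome 19 (13852450 to 13871021, minus strand, 16 exons), PLK2 on chromosome 2 (44541169 to 44546873, minus strand, 14 exons) and PLK3 on chromosome 15 (15611969 to 15616798, minus strand, 15 exons). The positions are those of the counted table, which were identical to the RefSeq annotation of the dog assembly UU_Cfam_GSD_1.0. PLK1 shares 60 exonic bases with ERN2 on the opposite strand, and PLK3 shares 96 with DYNLT4. Reads from those neighbours could be confused with the kinases only if strand was ignored in counting, which is not stated, and ERN2 had 0 to 6 counts per well and DYNLT4 9 to 35. PLK2 and PLK4 overlap no other gene of the table. A further family gene, PLK5, had 0 counts in all 8 wells, which allows up to 0.111 CPM in the shallowest well (a limit of 3 counts, counting error only).

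The resting monolayer expressed the mitotic members above the inducible ones. Compared per exon length, as TPM (counts divided by exon length and scaled to a common total), control wells held 90.1 ± 9.86 for PLK1, 36.8 ± 3.74 for PLK4, 16.6 ± 3.03 for PLK2 and 12.2 ± 1.86 for PLK3 (mean ± SD, n = 4). The order PLK1, PLK4, PLK2, PLK3 held within each of the 8 wells, before and after stretch. The ranges of PLK2 (13.2 to 20.6 TPM) and PLK3 (9.61 to 13.8 TPM) overlapped between control wells, so those neighbours were not separated by more than the spread between wells there, while every other neighbouring pair was separate. By mean TPM over all wells, PLK1 stood above 84.9% of the tested genes, PLK4 above 69.2%, PLK2 above 55.0% and PLK3 above 47.1%.

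The 4 kinases did not move as a family under strain. The inducible members were higher in every stretch well than in every control well, PLK1 was lower in every same-numbered pair of wells, and PLK4 stayed within its spread. In edgeR's quasi-likelihood test without a block for replicate number, none of the 4 passed an adjusted p of 0.05, as none of the 14571 genes did (0%; 0 in limma-voom and 40, or 0.275%, in DESeq2, PLK2 among them with an adjusted p of 0.00191). At an unadjusted p under 0.05 in the same test stood 3 of the 4, all but PLK4, against 3.97% of all tested genes. Same-numbered wells deviated together from their group means (correlation r from 0.108 to 0.328). Wells of differing numbers did so too within replicates 1 and 2 (0.0701 and 0.243) and within replicates 3 and 4 (0.216 and 0.189). Pairing by number was thus not told apart from the split into these sets. With the replicate number as a block PLK2 passed and the other 3 did not, against 0.7% of all tested genes passing in either direction. With the same block DESeq2 called PLK2 and PLK3, against 1.48% of the genes to which it gave an adjusted p, and limma-voom called PLK1 and PLK2, against 0.837%. With a block of 2 levels only (replicates 1 and 2, replicates 3 and 4), PLK2 again passed and the others did not, against 0.398%. The groups did not overlap for 2 of the 4 kinases, PLK2 and PLK3, against 2.55% of all tested genes.

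**Figure D1:**
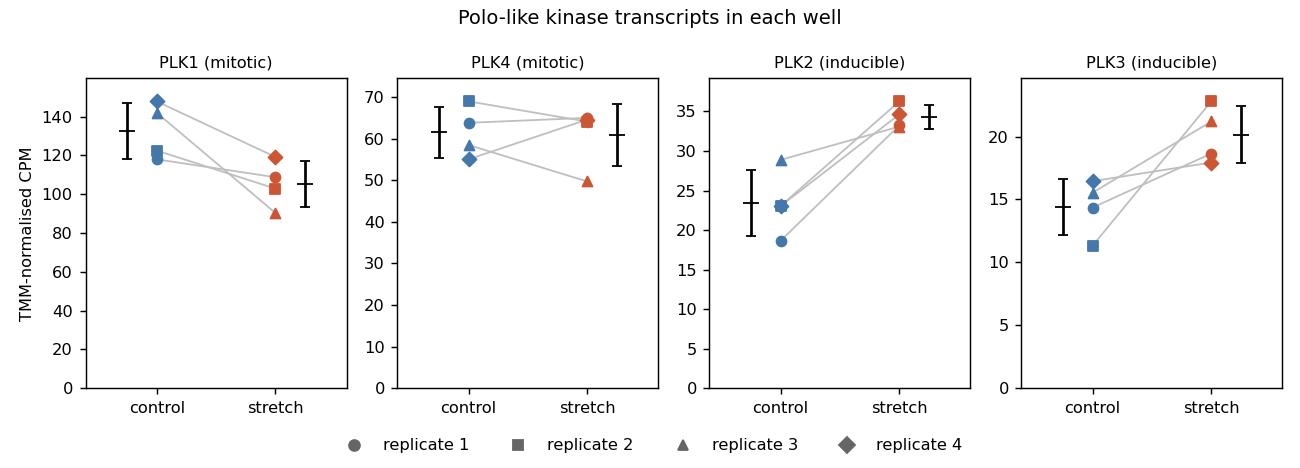
TMM-normalised CPM (y axis, from 0) of each kinase in 4 control wells (blue) and 4 stretch wells (red). Symbols give the replicate number, grey lines join wells with the same number, and black bars are mean ± SD. Stretch wells of PLK2 (33.1 to 36.3) and PLK3 (17.9 to 22.8) all lie above their controls, PLK1 is lower in 4 of 4 pairs, and PLK4 is higher in 2 of 4.

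PLK1, the kinase of mitotic entry and progression, had 118, 123, 142 and 148 CPM in control replicates 1 to 4 and 109, 103, 90.4 and 119 CPM in stretch replicates 1 to 4. The 3 highest values were controls and the 3 lowest were stretch wells, but the groups touched, since stretch replicate 4 exceeded control replicate 1. The means were 133 ± 14.6 and 105 ± 12.0 CPM, a log2 change of -0.33 ± 0.09 (SE) with a 95% interval from -0.53 to -0.13. This did not pass over all genes in edgeR's test, with an unadjusted p of 0.00391 and adjusted p of 0.813 without the block and 0.16 with it. In limma-voom with the block the adjusted p was 0.0339, and in DESeq2 with the block 0.136.

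The size of the PLK1 difference varied between pairs. It was -0.12, -0.25, -0.65 and -0.31 on the log2 scale for replicates 1 to 4, and stretch replicate 3 was the lowest of all 8 wells. Fitted within replicates 1 and 2 it was -0.18 (95% interval -0.31 to -0.06), and within replicates 3 and 4 it was -0.46 (-0.75 to -0.17). With both replicate 3 wells left out and the block kept, the difference was smaller, -0.23, and passed (edgeR, adjusted p = 0.00573). In RNA from whole wells, fewer cells in G2 and mitosis and less PLK1 RNA in each such cell cannot be told apart.

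PLK4, the centriole kinase, had 63.8, 69.0, 58.5 and 55.1 CPM in control replicates 1 to 4 and 65.0, 64.1, 49.7 and 64.6 CPM in stretch replicates 1 to 4. The groups overlapped almost fully, and 3 of the 4 stretch wells lay close together while replicate 3 was the lowest of all 8 wells. The means were 61.6 ± 6.11 and 60.9 ± 7.45 CPM, and the estimated log2 change was -0.02 ± 0.09 (adjusted p = 0.999 without the block and 0.979 with it, edgeR). The 95% interval ran from -0.22 to 0.19. The estimates of the other kinases lie outside it, but the interval of PLK1 (-0.53 to -0.13) overlaps it. Differences between the kinases were not tested. Without stretch replicate 3 the estimate was 0.07, and its sign also differed between replicates 1 and 2 (-0.04) and replicates 3 and 4 (0.02).

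PLK2 had the largest estimated change of the family with all wells, with and without the block. With the block, PLK3 had a larger one without replicate 1 (0.52 against 0.48) or 4 (0.61 against 0.55). Within replicates 3 and 4 that of PLK1 was larger in size (-0.46 against 0.39). Whether the changes differ in size was not tested. PLK2 had 18.7, 23.0, 28.9 and 23.0 CPM in control replicates 1 to 4 and 33.2, 36.3, 33.1 and 34.6 CPM in stretch replicates 1 to 4. The stretch wells lay close together, and all of them above control replicate 3, the highest control. The means were 23.4 ± 4.19 and 34.3 ± 1.48 CPM, a ratio of 1.47.

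The log2 change of PLK2 was 0.55 ± 0.11 without the block (95% interval 0.32 to 0.78; edgeR, adjusted p = 0.271) and 0.56 ± 0.09 with it (adjusted p = 0.00826). It was higher in 4 of 4 pairs, by 0.83, 0.65, 0.20 and 0.59 for replicates 1 to 4. Within replicates 1 and 2 the estimate was 0.73 and passed on its own (edgeR, adjusted p = 0.00117), and within replicates 3 and 4 it was 0.39 (adjusted p = 0.207). The call with the block was lost when the wells of replicate 1, 2 or 4 were left out (edgeR, adjusted p = 0.0556, 0.0656 and 0.11) and kept without replicate 3 (7.2e-07), with estimates from 0.48 to 0.69. Control replicate 3 held the highest control value, and without that well the test passed even with no block (0.67; edgeR, adjusted p = 0.0143).

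PLK3 had 14.4, 11.3, 15.5 and 16.5 CPM in control replicates 1 to 4 and 18.6, 22.8, 21.2 and 17.9 CPM in stretch replicates 1 to 4. Every stretch well was above every control well, with the narrowest gap between control replicate 4 and stretch replicate 4, which share a number. The means were 14.4 ± 2.23 and 20.1 ± 2.25 CPM, a ratio of 1.40. The log2 change was 0.48 ± 0.12 (95% interval 0.22 to 0.74), with adjusted p of 0.513 without the block and 0.161 with it in edgeR's test.

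PLK3 was higher in 4 of 4 pairs, by 0.38, 1.01, 0.45 and 0.12 for replicates 1 to 4, so the pair with its largest difference was not the pair with the largest difference of PLK2. Within replicates 1 and 2 the estimate was 0.69 (edgeR, adjusted p = 0.0178) and within replicates 3 and 4 it was 0.29 (0.549). DESeq2 with the block called it (adjusted p = 0.0133), while limma-voom with the block did not (0.0976). Raw counts were the lowest of the family, from 350 to 618 per well.

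**Figure D2:**
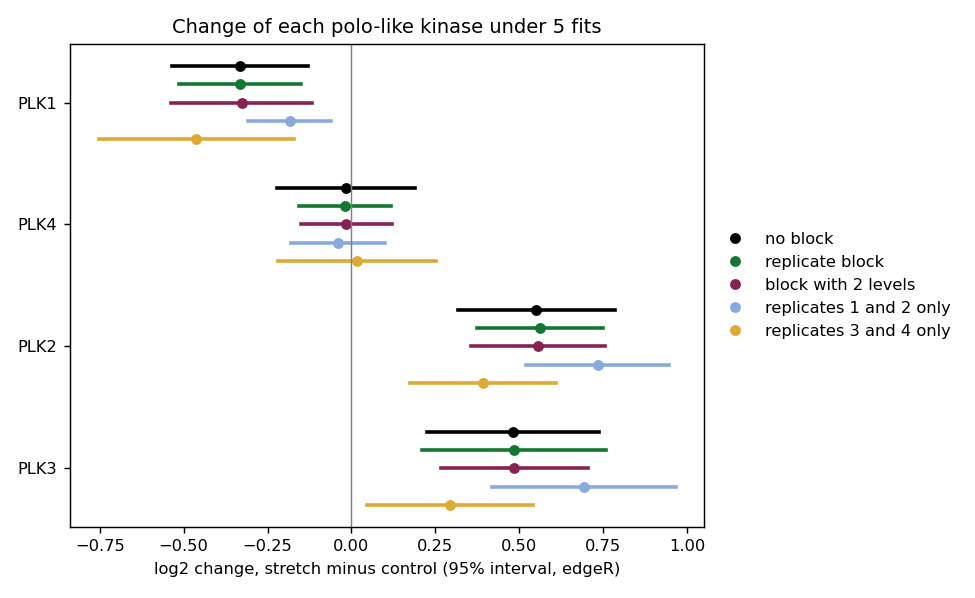
Log2 change of each kinase, stretch minus control (x axis), with its 95% interval from edgeR, under 5 fits shown in different colours. Intervals of PLK2 and PLK3 lie above 0 and those of PLK1 below 0 in each of the 5 fits, while every PLK4 interval spans 0. The estimates within replicates 1 and 2 and within replicates 3 and 4 differ in size (0.73 and 0.39 for PLK2, -0.18 and -0.46 for PLK1).

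Ranked by p among the 14571 tested genes without the block (edgeR), PLK2 stood 12th, PLK3 40th, PLK1 70th and PLK4 12182nd. With the replicate block PLK2 stood 50th, PLK1 267th, PLK3 270th and PLK4 11458th. The spread between wells was well above counting error for all but one of these groups. In control wells the coefficient of variation was 11.0% for PLK1, 9.92% for PLK4, 17.9% for PLK2 and 15.5% for PLK3, where counting alone would give 1.58%, 2.33%, 3.77% and 4.81%. The stretch wells of PLK2 were the exception, with 4.32% against 3.15% from counting.

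Ratios between the kinases were read within each well, where library size and scaling cancel. No test was made of them, because the family was chosen with results known. The mean log2 TPM of the inducible members minus that of the mitotic members was -2.12, -2.22, -1.82 and -1.93 in control replicates 1 to 4 and -1.47, -1.21, -1.06 and -1.53 in stretch replicates 1 to 4. Every stretch well thus had a narrower gap than every control well, and the mean gap narrowed by 0.70. Leaving out any single well gave 0.61 to 0.77.

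Within the summed TPM of the family, PLK2 and PLK3 together made up 18.4 ± 1.39% in control wells and 27.8 ± 2.96% in stretch wells, with no overlap (17.2 to 20.4% and 24.9 to 31.2%). PLK1 made up 57.8 ± 2.80% and 47.9 ± 2.36%, again with no overlap. The summed level of the family was 156 ± 10.5 TPM in control wells and 150 ± 9.98 TPM in stretch wells, which overlapped. These shares did not overlap between the groups, while the total did. They are computed from the same values as the single kinases, so they add no separate evidence.

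Members of the same class did not keep a fixed ratio. PLK1 over PLK4 was 2.10 and 2.02 in control replicates 1 and 2 but 2.76 and 3.05 in control replicates 3 and 4, where PLK1 was higher and PLK4 lower than in the former. In stretch replicates 1 to 4 the ratio was 1.90, 1.82, 2.07 and 2.10, lower than the control of the same number in 4 of 4 pairs although the groups overlapped. PLK2 over PLK3 ranged from 1.09 to 1.71 in control wells and from 1.31 to 1.62 in stretch wells, and was higher after stretch in 2 of 4 pairs. Whether the changes of PLK1 and PLK4 differ was not tested.

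**Figure D3:**
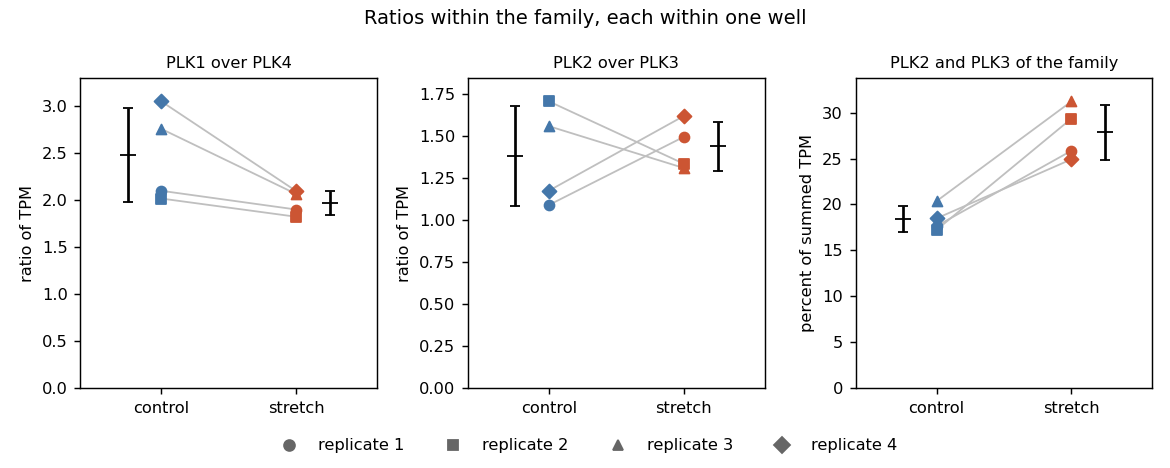
Ratios within each well in TPM (y axes, from 0): PLK1 over PLK4, PLK2 over PLK3, and the percent of the summed family TPM held by PLK2 and PLK3. Symbols give the replicate number, grey lines join equal numbers, and black bars are mean ± SD over 4 wells. The share of PLK2 and PLK3 (17.2 to 20.4% in control wells, 24.9 to 31.2% in stretch wells) does not overlap between groups, while both ratios within a class do.

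Most regulators and partners of PLK1 had lower estimates too. Of 25 regulators and partners of PLK1, all tested, 23 had a lower estimate after stretch and the median log2 change was -0.19, where the median over all tested genes was -0.0032. Without the block 0 passed in edgeR's test (12 lower and 0 higher at an unadjusted p under 0.05, against 1.76% and 2.22% of all tested genes), and with it 1 passed, lower (0.172% of all tested genes). In 5 of the 25 every stretch well was below every control well, against 1.24% of all tested genes. No gene of this list had an estimate as low as that of PLK1, the lowest being -0.31. DESeq2 without the block called 1 of the list, lower (0.0549% of all tested genes), and limma-voom 0. With the block DESeq2 called 3, all lower (0.44% of the 9768 genes to which it gave an adjusted p), and limma-voom 2, both lower (0.199% of all tested genes).

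The gene that passed was WEE1, the kinase that holds CDK1 inactive before mitosis and is marked for destruction after phosphorylation by PLK1. It had 122 ± 1.82 CPM in control and 98.4 ± 5.76 CPM in stretch wells, and fell by 0.31 ± 0.05 on the log2 scale (adjusted p = 0.00246 with the block, edgeR). KIF20A, a kinesin of cytokinesis that docks PLK1 on the central spindle, had an estimate of -0.27 with the block, and CCNA2, cyclin A2, one of -0.20 (adjusted p = 0.0645 and 0.148, edgeR). KIF20A passed with the block in DESeq2 (adjusted p = 0.00227) and limma-voom (0.0484). KIF20A and CCNA2 both overlap genes on the opposite strand. AURKA and BORA, the kinase and cofactor that activate PLK1, had estimates of -0.21 and -0.22 (adjusted p = 0.168 and 0.119 with the block, edgeR), and are named here outside the rule, after their values were seen.

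All 28 genes of the wider G2/M list were tested, and each had a lower estimate, with a median of -0.17. Without the block 0 passed in edgeR (14 lower at an unadjusted p under 0.05, against 1.76% of all tested genes), while DESeq2 called 3, all lower (0.0549%), and limma-voom 0. With the block 5 passed in edgeR, all lower, against 0.172% of all tested genes: SGO1 (-0.37), CKAP2L (-0.39), CCNF (-0.36), CENPF (-0.34) and TTK (-0.29), with adjusted p from 0.00406 to 0.0337. With it DESeq2 called 10 and limma-voom 6, all lower, against 0.44% and 0.199%. SGO1 protects cohesion at centromeres, CENPF is a kinetochore protein and TTK the spindle checkpoint kinase. With the block of 2 levels CENPF missed the threshold (adjusted p = 0.532, edgeR). The estimate of PLK1 was below those of 23 of the 28 genes, and that of PLK4 was above those of 27.

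Stretch replicate 3, the well with the lowest PLK1 and PLK4, weighed on these lists. Without it the median log2 change was -0.11 for the PLK1 list and -0.12 for the G2/M list, and 0 genes of either list passed without the block, as 0% of all tested genes did. With both replicate 3 wells left out and the block kept, the medians were -0.11 and -0.11, and 2 and 6 genes passed, all lower, in a fit that called 186 of 14641 genes (1.27%; 0.273% lower), more than with all wells.

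Genes of centriole duplication, the process that PLK4 starts, had small estimates. Of 22 listed, 21 were tested, 17 had a lower estimate and 4 a higher one, and the median was -0.06. None passed in edgeR with or without the block, nor in DESeq2 or limma-voom without it. With it DESeq2 called STIL alone, lower (adjusted p = 0.0467), against 0.44% of the genes to which it gave an adjusted p. With it limma-voom called none, against 0.199% of all tested genes called lower. At an unadjusted p under 0.05 in edgeR's fit with no block stood 2, both lower, against 1.76% of all tested genes. These were STIL (-0.25) and SASS6 (-0.15), which build the cartwheel of the new centriole with PLK4, and RTTN followed with -0.13 (adjusted p = 0.0576, 0.436 and 0.707 with the block, edgeR). CEP152 and CEP192, the scaffolds that recruit PLK4, named here outside the rule after their values were seen, had estimates of -0.07 and -0.13, and whether these differ from PLK4 was not tested.

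Among the list genes named, CCNF, AURKA, SASS6, CEP192, TSC1, HIF1A, LIN54, FOXM1 and ATF3 also overlap antisense genes, 1 each, and BORA overlaps 2, and their reads may be shared with these. The transcription factors and subunits of the DREAM and MMB complexes, which silence and activate G2/M promoters, were listed with their partner NF-Y. Of 16 tested, 13 had a lower estimate, with a median of -0.03, and none passed with or without the block in edgeR, nor in DESeq2 or limma-voom (1 lower at an unadjusted p under 0.05 in edgeR without it, against 1.76% of all tested genes). LIN54, the subunit that binds these promoters, had -0.26, FOXM1 -0.21 and NFYB -0.12 (adjusted p = 0.192, 0.178 and 0.748 with the block, edgeR). LIN54 passed with the block when replicate 4 was left out (edgeR, adjusted p = 0.0413).

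On the inducible side, the substrates and partners of PLK2 and PLK3 had a median of -1.9e-04 over 15 tested genes of 16 listed, and none passed with or without the block in edgeR, nor in DESeq2 or limma-voom (1 higher at an unadjusted p under 0.05 in edgeR without it, against 2.22% of all tested genes). That gene was RAPGEF2, a Ras-family exchange factor that PLK2 phosphorylates in neurons, with 0.18 (adjusted p = 0.151 with the block, edgeR). TSC1 had -0.11 and HIF1A 0.07 (adjusted p = 0.572 and 0.722 with the block, edgeR). The estimates of PLK2 and PLK3 lay above all 15.

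Of the p53 response, whose known targets include PLK2, none of the 21 genes tested of 22 listed passed with or without the block in edgeR, nor in DESeq2 or limma-voom without it (2 higher at an unadjusted p under 0.05 in edgeR without it, against 2.22% of all tested genes). With the block limma-voom called CDKN1A alone, higher (adjusted p = 0.0171), against 0.638% of all tested genes. DESeq2 called none with it, against 1.04% called higher of the genes to which it gave an adjusted p. The median was 0.05, and 13 had a higher estimate. CDKN1A, the gene of the CDK inhibitor p21, had the largest estimate, 0.46, below those of PLK2 and PLK3, with 109 ± 18.5 CPM in control and 151 ± 33.5 CPM in stretch wells (adjusted p = 0.381 with the block, edgeR). MDM2, the p53 ubiquitin ligase, had 0.16 with no overlap between groups, and GADD45A had 0.20 (adjusted p = 0.137 and 0.148 with the block, edgeR).

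Immediate-early genes, which need no new protein to be switched on after a stimulus, were the list in which the inducible kinases stood in the middle. All 34 were tested, 33 had a higher estimate, and the median was 0.47, beside 0.55 for PLK2 and 0.48 for PLK3. PLK2 lay above 20 of the 34 and PLK3 above 17. Without the block 0 passed in edgeR (19 higher at an unadjusted p under 0.05, against 2.22% of all tested genes), while DESeq2 called 8, all higher (0.22%), and limma-voom 0. With the block 10 passed, all higher, against 0.528% of all tested genes, and DESeq2 called 14 and limma-voom 17, all higher, against 1.04% and 0.638%. In 14 of the 34 every stretch well was above every control well, against 1.3% of all tested genes.

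The 10 were BTG2, CSRNP1, EGR1, ATF3, KLF6, DUSP5, DUSP6, NR4A3, CCN2 and TRIB1, with log2 changes with the block from 0.28 (TRIB1) to 1.5 (NR4A3). With the block of 2 levels 3 of the 34 passed, all higher, against 0.281% of all tested genes. EGR1, a zinc-finger factor induced through ERK, had 223 ± 23.7 CPM in control and 299 ± 43.9 CPM in stretch wells (log2 change 0.42, adjusted p = 0.00169 with the block and 0.0668 with 2 levels, edgeR). ATF3, a stress-induced bZIP factor, had 50.8 ± 15.1 CPM in control and 77.4 ± 26.0 CPM in stretch wells (log2 change 0.59, adjusted p = 1.6e-04 with the block and 4.6e-06 with 2 levels, edgeR). DUSP1, a MAP kinase phosphatase, had 0.80 without passing in edgeR (adjusted p = 0.115 with the block), and overlaps 1 gene on the opposite strand. It passed in DESeq2 without the block (adjusted p = 1.2e-04) and, with it, in DESeq2 (0.0025) and limma-voom (0.00452).

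**Figure D4:**
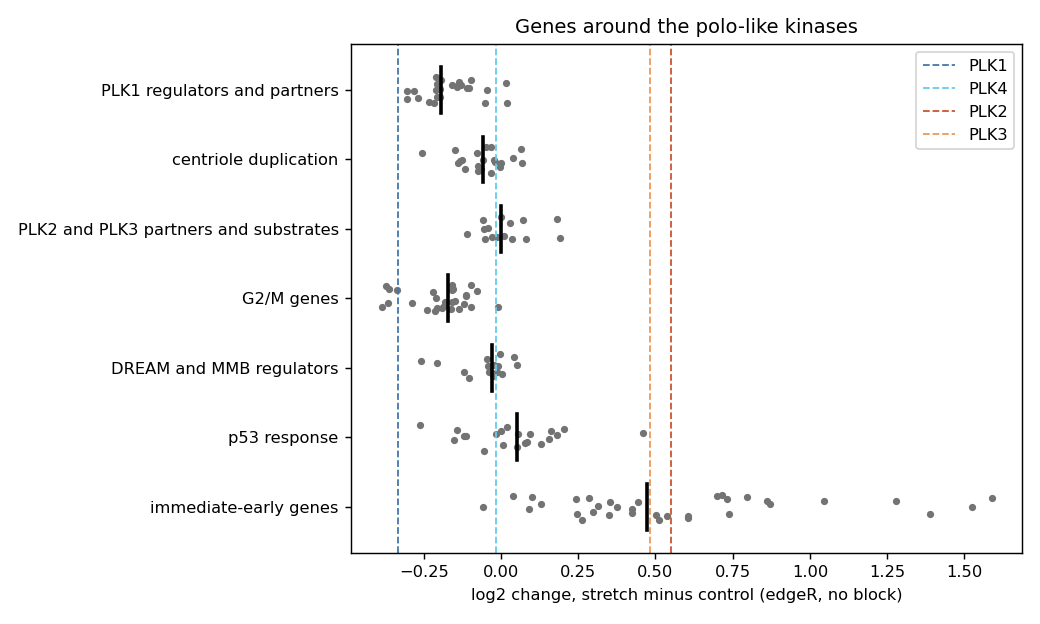
Log2 change, stretch minus control, from edgeR without the block (x axis) for each tested gene of 7 lists (grey points, spread vertically at random, black line at the list's median). Dashed lines mark the 4 kinases. PLK1 (-0.33) lies at the low end of the PLK1 and G2/M lists, PLK4 (-0.02) above the median of the centriole list (-0.06), and PLK3 (0.48) and PLK2 (0.55) in the middle of the immediate-early list.

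The genes whose levels followed each kinase most closely over the 8 wells were looked up among 11062 tested genes with a mean of at least 5 CPM, by Pearson r of log2 CPM. This is a description of 8 wells that share 2 groups, and the genes were picked as the highest of many. For PLK1 they were CCNF (0.975), KIF20A (0.971) and INAVA (0.965), and after subtraction of the group means r was 0.945, 0.933 and 0.955. For PLK4 they were CAAP1 (0.978), SEPTIN10 (0.951) and POU6F1 (0.949). For PLK2 they were GPR180 (0.971), AK4 (0.967) and HM13 (0.967), and for PLK3 they were PIM3 (0.976), EEF1AKMT3 (0.948) and SPAG6 (0.944). After the same subtraction r was 0.978, 0.952 and 0.981 for those of PLK4. It was 0.887, 0.942 and 0.881 for those of PLK2 and 0.926, 0.897 and 0.825 for those of PLK3.

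Between the kinases themselves r was lower than for these genes, which were picked as the highest. PLK2 and PLK3 had r = 0.771 over the 8 wells and 0.223 after subtraction of the group means. Over the 8 wells 180 genes were more like PLK2 than PLK3 was, and 156 more like PLK3 than PLK2 was. PLK1 and PLK4 had r = 0.138 and 0.129. PLK4 had r = -0.43 with PLK3 and -0.12 with PLK2, and -0.64 and -0.12 within groups. PLK1 had negative r with PLK2 (-0.50) and PLK3 (-0.58), which became 0.507 and 0.118 within groups.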

How the data were processed

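The authors deposited unnormalised exon counts for each gene in 8 wells, 4 control and 4 stretch, and gave each gene's exon length per the file headers. Columns carry the library names of the labels. The submitters' processing notes name FastQC 0.11.8, Trim Galore 0.6.5, STAR 2.7.3a, Subread and featureCounts. Genome build, strandedness of counting and treatment of multi-mapping reads are not given in the sources used here. All 37291 symbols matched to RefSeq UU_Cfam_GSD_1.0 had identical positions. No sequences are printed.

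Counts were tested in R 4.3.3 with edgeR 4.0.16 (TMM factors, filterByExpr with a minimum count of 10 and total of 15, glmQLFit with robust estimation, glmQLFTest), two-sided, with Benjamini-Hochberg adjustment over 14571 genes at 0.05, and the code was tested on simulated data. CPM are TMM-normalised. TPM were computed from counts and exon lengths, with 0.1 added before logs. The main fit had no block. Replicate numbers come from the titles. Same-numbered wells had correlated deviations from the group means (mean r over tested genes 0.199, from 0.108 to 0.328 over 4 numbers). For differing numbers the mean r was -0.07. It was positive within replicates 1 and 2 or 3 and 4 (0.0701 to 0.243) and negative between these sets (-0.295 to -0.0857). Values with the block are given where they change a call. Alternatives were DESeq2 1.42.0, limma-voom (limma 3.58.1), other scalings and filters, a block with 2 levels and omission of wells. Lists of pathway genes are described by counts and medians, without set tests. The kinases and the lists were chosen with earlier results of these data known. Genes named were the 4 kinases, the 3 genes of each list with the smallest p without the block, each list gene passing with the block, and the 3 genes most like each kinase. Figures were drawn with matplotlib 3.10.9.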

Additional observations from a re-analysis of the deposited data

Results flagged for a closer look

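In groups of 4 wells, 1 well was compared with the other 3 by the ratio of its gap to the whole range, for the 4 kinases and 31 named list genes. Of 70 such groups 3 were past the 95% limit, and 3.5 would be by chance. PLK4 in stretch replicate 3 had 49.7 CPM while the other stretch wells had 64.1 to 65.0 CPM. CSRNP1 in control replicate 3 had 43.2 CPM against 33.2 to 34.7 CPM in the other control wells, and CCN2 in control replicate 2 had 13.5 CPM against 6.67 to 7.65 CPM.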

How the results depend on the processing

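Directions held for PLK1, PLK2 and PLK3 under all 25 alternatives each. With the replicate block, PLK2 also passed under edgeR (0.56), DESeq2 (0.57) and limma-voom (0.55). It passed with the block of 2 levels (0.56), within replicates 1 and 2 (0.73), with no filter on low counts (0.55) and under DESeq2 without a block (0.55). PLK1 also passed under limma-voom with the replicate block (-0.33), and PLK3 under DESeq2 with it (0.49) and within replicates 1 and 2 (0.69). PLK4 had the opposite sign within replicates 3 and 4 (0.017), and with the replicate block without replicate 2 (0.013) or 3 (0.050). Without single wells the estimates ran from -0.39 to -0.26 (PLK1), 0.46 to 0.67 (PLK2), 0.38 to 0.55 (PLK3) and -0.066 to 0.070 (PLK4). Without one replicate number and with the replicate block they ran from -0.40 to -0.23, 0.48 to 0.69, 0.32 to 0.61 and -0.10 to 0.05.

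Genes called over all tested genes numbered 0 in the main edgeR fit, 102 with the replicate block, 58 with the block of 2 levels, 51 within replicates 1 and 2, 25 within replicates 3 and 4, 11 with no filter and 40 under DESeq2. With the replicate block DESeq2 called 145 and limma-voom 122. Without single wells the count was 0 to 12, and with the replicate block it was 43, 67, 186 and 74 without replicates 1, 2, 3 and 4.

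For the lists, the replicate block gave 1 call (PLK1 list), 5 (G2/M) and 10 (immediate-early) where the main fit gave 0, and the block of 2 levels 1, 4 and 3. The omission of wells for lists was added after seeing the data. With the replicate block and 1 number left out, calls ran from 1 to 2, 1 to 7 and 6 to 15, and from 0 to 1 for the p53 and the DREAM and MMB lists. Without single wells and with no block, calls for the immediate-early list ran from 0 to 3. Without single wells, medians ran from -0.22 to -0.11 (PLK1 list), -0.20 to -0.12 (G2/M) and -0.077 to -0.023 (centriole). With the replicate block and 1 number left out they ran from -0.23 to -0.11 (PLK1 list), -0.22 to -0.11 (G2/M), -0.032 to 0.021 (PLK2 and PLK3 partners) and -0.0056 to 0.085 (p53). Of the 31 other named genes, NFYB had the opposite sign within replicates 3 and 4 (0.013). The cause of these differences was not tested. Each kinase had at least 350 counts in each well.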
